A study of Mus musculus with 16 samples.

Results

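The comparison set clone 8 against clone 4, 2 sublines of the mouse embryonic stem cell line CRAFR26, over all expressed genes. The members were chosen by column name: the 8 libraries named for clone 8 and the 8 named for clone 4, which are all 16 libraries of the series. Of the 52636 gene identifiers in the count table, 12854 had enough counts to be tested. CRAFR26 cells carry a c-RAF kinase construct that activates ERK, the last kinase of the RAS-RAF-MEK-ERK cascade, when 4-hydroxytamoxifen (4OHT) is added. The cells were grown on 0.1% gelatine in N2B27 with the GSK3 inhibitor CHIR99021 (3 µM), the MEK inhibitor PD0325901 (1 µM) and LIF (1000 U/ml). For 48 h before sampling the FGF receptor inhibitor PD173074 (250 nM) took the place of the MEK inhibitor in every group. The 0h cultures received no 4OHT, the 2h and 4h cultures had 250 nM 4OHT for 2 h and 4 h, and the rev cultures had 4 h of induction and a further 2 h with MEK inhibitor. Each of these 4 groups held 2 cultures of each clone. Each subline is 1 clone, so a difference between them is a difference between 2 clones and says nothing of how other clones of the line vary. The p-values measure the spread between cultures of a clone, which the labels do not place on separate days or passages.

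Embryonic stem cells kept with MEK and GSK3 inhibitors and LIF stay in a naive state that resembles the epiblast before implantation, held by a network of transcription factors that includes Nanog, Klf4, Tbx3 and Esrrb. Inhibition of GSK3 stabilises β-catenin, which acts with TCF and LEF factors on Wnt target genes. LIF acts through STAT3, and ERK signalling drives exit from the naive state towards the formative and primed epiblast. Sublines of a stem cell line are derived from single cells and then diverge in culture. Gains and losses of chromosome segments, altered imprints and altered silencing of germline genes are known in such lines.

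RNA depleted of ribosomal RNA was sequenced, and the deposited values were raw read counts. Library totals ranged from 2172651 to 12680303 counts. The 8 most abundant gene models, nuclear and mitochondrial ribosomal RNA models and others such as Gm26917 and Lars2, took 56.8% ± 7.16 of the counts in clone 4 and 62.8% ± 8.04 in clone 8 (SD, n = 8 libraries each). That difference of 5.99 percentage points had p = 0.113 in a two-sided exact permutation test with clone labels exchanged within each time (adjusted p = 0.169 over 3 such tests), and it was 3.48 without rev clone 8 replicate 2. The mitochondrial share of counts was 11.7% ± 2.18 in clone 4 and 9.30% ± 1.79 in clone 8 (exact p = 0.0262, adjusted p = 0.0787), where 0.00154 was the smallest p the 1296 arrangements allowed. The library of rev clone 8 replicate 2 stood apart, with 80.4% of its counts in the 8 models, against 53.1% to 65.9% in the other clone 8 libraries. The library of 2h clone 8 replicate 1 stood apart in another way. Of the 8 clone 8 libraries it was nearest to clone 4 for 18 of the 31 genes named for the clone effect and in all 5 chromosome stretches described below. What part this has in the results was not tested. Without it 1891 genes were higher in clone 8 and 1663 lower, against 1933 and 1715 with it, and the medians of the 5 stretches lay at -0.57 and 0.86 on chromosome 3, 0.75 and 0.53 on chromosome 6 and -0.97 on chromosome 14. A count of 3, taken as the floor, was worth 0.213 to 1.35 CPM. CPM here are counts scaled to the library total after TMM normalisation, a correction for library composition. On the principal components of the 500 most variable genes, the second (25.2% of the variance) placed all 8 clone 4 libraries on its positive side and all 8 clone 8 libraries on its negative side.

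The stem cell label was checked on the pluripotency genes, which were well expressed in both clones. Pou5f1, the core pluripotency factor Oct4, ranged from 111 to 167 CPM in clone 4 and from 122 to 150 CPM in clone 8, with overlapping clones (log2 fold change 0.05, SE 0.05, adjusted p 0.559, edgeR). Markers of fibroblasts were near the floor: of 9, 5 had no more than 3 counts in any library and all 9 together summed to 4.22 to 13.0 CPM per library. The construct itself could not be followed. Esr1, the oestrogen receptor gene, was at 14.6 ± 3.85 CPM in clone 4 and 11.6 ± 3.55 CPM in clone 8 (log2 fold change -0.41, SE 0.11, adjusted p 0.00529).

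The clones differed at 3648 of the 12854 tested genes (28.4%), of which 1933 were higher in clone 8 (15% of those tested) and 1715 lower (13.3%), in the edgeR quasi-likelihood test with time as a covariate and Benjamini-Hochberg adjusted p under 0.05. Most differences were small: the median absolute log2 fold change of the called genes was 0.42, and 194 genes (1.51%) were at least 2-fold higher and 246 (1.91%) at least 2-fold lower. The direction was the same at all 4 times for 3165 of the 3648 genes. For 514 genes (4% of those tested) every clone 8 library lay on one side of every clone 4 library. The split of higher and lower genes depended on scaling. Scaled by library size alone, 299 genes were higher and 1911 lower, with the median of all genes at -0.26 in place of -0.01, and directions below are relative to the median gene. With the share of the 8 abundant models as a covariate, 1679 genes were higher and 1377 lower, and without the library of rev clone 8 replicate 2, 1963 were higher and 1586 lower.

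Taken one time at a time, in a model with the 8 clone-and-time groups, 2 libraries stood against 2. The uninduced cultures differed at 1063 genes (8.27%, of all tested genes 4.85% higher in clone 8 and 3.42% lower). After 2 h of 4OHT the number was 1264 (9.83%, 5.48% higher and 4.35% lower), after 4 h it was 1439 (11.2%, 6.28% higher and 4.92% lower) and after reversal 988 (7.69%, 4.39% higher and 3.3% lower). Under library-size scaling the counts were 229 before induction, 146 after 2 h and 3783 after reversal. With DESeq2 they were 532, 547, 723 and 482 at the 4 times in turn. The counts by time do not say that the clones differed more at one time than another, which was tested gene by gene as a difference in response.

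Sfrp1, a secreted antagonist of Wnt ligands (ENSMUSG00000031548, chr8:23411502-23449632, mm10, GENCODE M21 gene span), had the smallest p of all genes. It ranged from 32.9 to 53.9 CPM over the 8 clone 4 libraries (median 42.4) and from 122 to 157 CPM over the 8 clone 8 libraries (median 132). No library of one clone reached the range of the other, and the log2 fold change was 1.72 (SE 0.06, adjusted p 1.11e-20).

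Lefty2, a secreted inhibitor of Nodal (ENSMUSG00000066652, chr1:180893108-180899103), ranged from 22.4 to 34.2 CPM in clone 4 (median 25.2) and from 71.7 to 105 CPM in clone 8 (median 85.8), a log2 fold change of 1.68 (SE 0.07, adjusted p 2.2e-19). Cbln1, a secreted synapse organiser (chr8:87468405-87472609), had the largest increase under the naming rule, from 1.08 to 4.32 CPM in clone 4 against 7.64 to 15.02 CPM in clone 8 (log2 fold change 2.44, SE 0.15, adjusted p 7.52e-15). The non-coding gene Gm2694, at the same locus, was higher by 2.02 (SE 0.20). It shares exon positions with Gm19872 and Gm27016, so its reads cannot be assigned to it alone.

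Olig2, a transcription factor of oligodendrocyte and motor neuron precursors, was at 0.438 to 2.66 CPM in clone 4 and 5.13 to 14.4 CPM in clone 8 (log2 fold change 2.16). Dapk1, a death-associated protein kinase, was at 2.34 to 4.38 and 12.5 to 18.9 CPM (2.10), and Lama4, a laminin chain, at 1.17 to 2.10 and 4.50 to 9.67 CPM (2.06). In these 3 genes the clones did not overlap. St8sia1, the sialyltransferase that makes the ganglioside GD3, was higher by 2.11, with 1 clone 8 library (rev replicate 2) at 3.15 CPM, below the highest clone 4 library at 4.33 CPM. The other genes of the naming rule were Emp1, a tetraspan membrane protein (1.82), Npr3, the clearance receptor of natriuretic peptides (1.74), the T-box factor Tbx15 (1.66) and 2300002M23Rik (1.88), all without overlap between the clones and with adjusted p from 1.01e-15 to 1.65e-09. Named for their small p-values, Acadm, the medium-chain acyl-CoA dehydrogenase of fatty acid oxidation, was at 18.9 to 23.2 CPM in clone 4 and 53.4 to 71.5 CPM in clone 8 (log2 fold change 1.52, SE 0.06), Myof, a ferlin of membrane repair, was higher by 1.63 (SE 0.07) and Gsto1, a glutathione transferase, by 1.16 (SE 0.06).

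The largest decrease in clone 8 was that of Uggt2, a glucosyltransferase of glycoprotein folding in the endoplasmic reticulum (ENSMUSG00000042104, chr14:118985039-119099430). It ranged from 6.77 to 12.2 CPM in clone 4 (median 10.5) and from 0 to 1.86 CPM in clone 8 (median 0.570), a log2 fold change of -3.80 (SE 0.22, adjusted p 1.47e-15). Without 2h clone 8 replicate 1 it was -4.36. Stra8, which starts meiosis, was at 14.3 to 17.3 CPM in clone 4 and 1.99 to 6.34 CPM in clone 8 (log2 fold change -2.14, SE 0.14). Nlrp4c, of an oocyte NLR family with close paralogs, was at 6.50 to 11.3 and 0.263 to 3.13 CPM (-2.96, or -3.58 without 2h clone 8 replicate 1). Cdx2, a homeobox factor of trophectoderm and posterior development, was at 2.09 to 8.47 CPM in clone 4 and 0 to 1.80 CPM in clone 8 (-2.60, SE 0.25), without overlap.

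Lef1, a DNA-binding partner of β-catenin, was at 5.56 to 12.03 CPM in clone 4 and 0.640 to 2.49 CPM in clone 8 (log2 fold change -2.70, SE 0.18, adjusted p 2.95e-14). Rhox5, an X-linked homeobox gene, was at 41.9 to 71.0 CPM in clone 4 and 9.53 to 21.7 CPM in clone 8 (-1.88, SE 0.11, adjusted p 1.96e-15). Ipo5, an importin, had one of the smallest p-values of the lower genes, at 217 to 246 CPM in clone 4 and 113 to 145 CPM in clone 8 (-0.93, SE 0.05). Dazl, an RNA-binding protein of germ cells, is described with the germline genes. Afap1, an actin-binding adaptor, was lower by a log2 fold change of -1.44 (SE 0.09). The rest under the rule were the antisense transcript Ptprtos (-2.62), the pseudogene Gm11800 (-3.50, or -4.65 without 2h clone 8 replicate 1), Ccdc136 (-2.26, with a gene on the same strand overlapping it), the sarcomere gene Myom2 (-2.12), the RhoGAP gene Arhgap20 (-2.11), the epoxide hydrolase Ephx2 (-2.04) and Bglap3 (-1.93), of the osteocalcin cluster of near-identical genes, whose reads may be split among copies. Of these 7, Arhgap20 was the gene in which the clones overlapped. The strand setting of the counts is not given in the sources used here, so reads of St8sia1, Npr3, Uggt2, Lef1, Ccdc136 and Arhgap20 cannot be told apart from those of genes that overlap their exons on the opposite strand. The same holds for Pou5f1, Tbx3, Gbx2, Lin28a, Grhl2, Dnmt3a, Dnmt3l, Tet2, Axin2, Notum, Stat3, Col4a1, Col4a2, Krt8, Dusp5, Fosl1, Slc2a1, Bnip3, Ccnd2, Ccnd3, Cdkn1a, Sycp3, Zdbf2, Gnas, Mest, Snrpn, Usp29, Kcnq1ot1, Meg3, Rtl1, Gm2694, Nefm and Elf3. Genes on the same strand overlap exons of Tfcp2l1, Sox1, Plec, Ube2d2a, Ccdc136, Gm2694, Meg3, Rtl1, Rian, Mirg, Usp29 and Snrpn, and the counts of these cannot be told apart either.

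**Figure D1:**
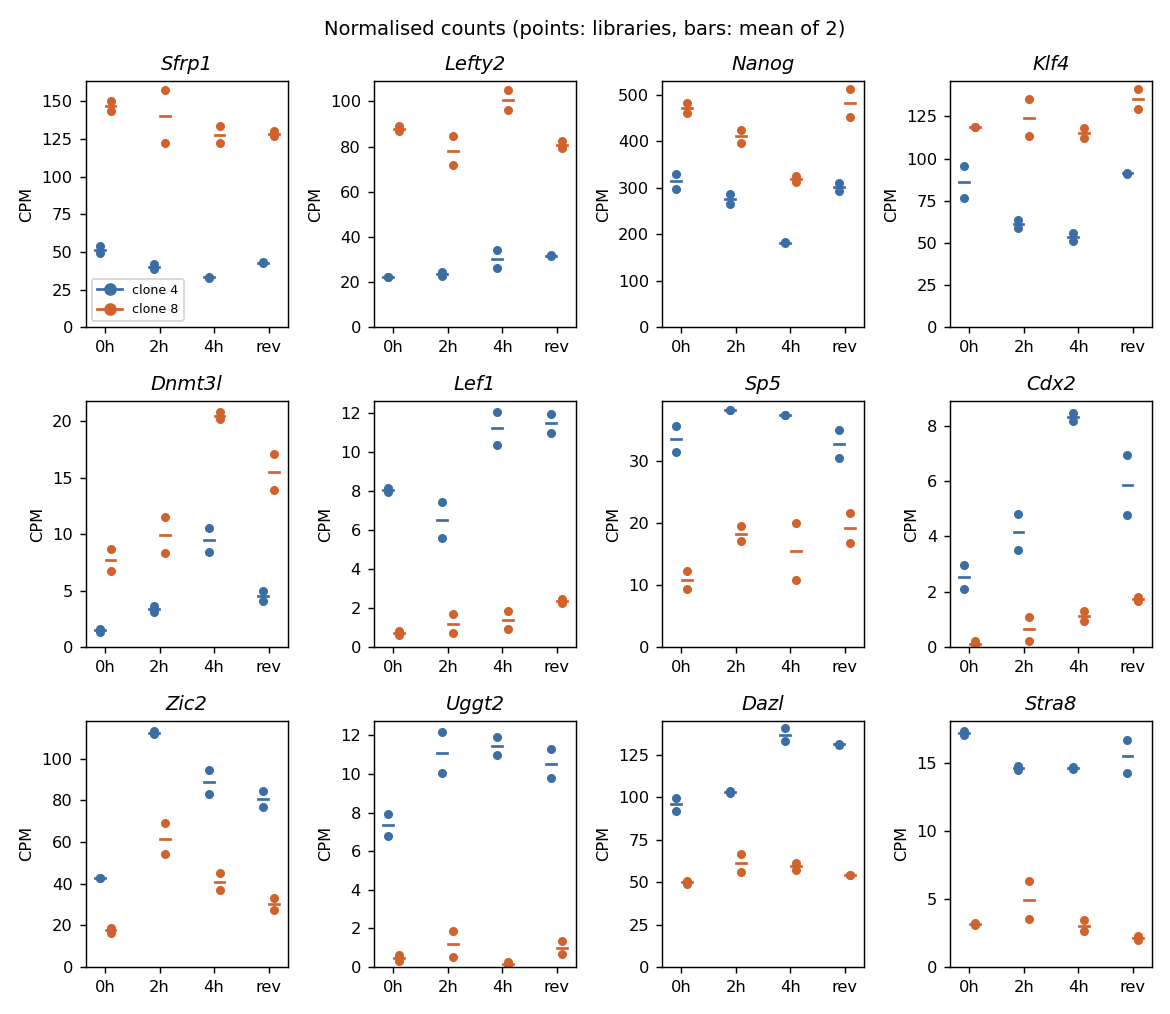
Normalised counts (CPM, y axis from 0) of 12 genes at each time (x axis), with 1 point per library, clone 4 in blue and clone 8 in orange, and a bar at the mean of 2 libraries. Sfrp1, Lefty2, Nanog, Klf4 and Dnmt3l were higher in clone 8 at each time, and Lef1, Sp5, Cdx2, Zic2, Uggt2, Dazl and Stra8 were lower at each time, without overlap between the clones at any 1 time.

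Genes close to absent in one clone were weakly expressed in the other. The 5 with at most 3 counts in every library of one clone and the highest level in the other were all higher in clone 4: Btla, an inhibitory receptor of lymphocytes, at 1.78 ± 1.27 CPM, the kallikrein Klk1 at 1.28 ± 0.294 CPM, the non-coding gene Gm4316 at 1.11 ± 0.647 CPM, the myosin Myo3b at 1.06 ± 0.327 CPM and the X-linked Magea8 at 1.05 ± 0.530 CPM (SD, n = 8). The 5 highest in the other direction, with at most 3 counts in every clone 4 library, were Gm4691, Gm2308, Gm29667, Gm12169 and Glp1r, at means of 0.675 to 0.985 CPM in clone 8. Gm4691, at 0.985 ± 0.707 CPM, was within the spread of Magea8. These levels are close to the floor, so that absence in either clone cannot be stated.

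Neighbouring genes differed together over 5 long stretches of 3 chromosomes. The stretches were bounded on the 0h libraries alone, as places where the running median over 15 neighbouring tested genes lay at or beyond 0.3 on the log2 scale, and the counts below come from a fit without the 0h libraries, in which 28.8% of all tested genes were called, 15.2% higher in clone 8 and 13.6% lower. The distal end of chromosome 3 (chr3:142239590-159938664, from Pdlim5 to Wls, the last tested gene) had 39 of 44 tested genes higher and 0 lower, with a median log2 fold change of 0.89 (1.86-fold). Just before it, chr3:125865271-138489515 (Ugt8a to Metap1) had 35 of 48 genes lower and 2 higher, with a median of -0.56 (0.679-fold).

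On chromosome 6 the stretch chr6:108828641-113493343 (Edem1 to Creld1) had 16 of 18 genes higher and 0 lower, median 0.79 (1.73-fold), and chr6:115729131-149151171 (Tmem40 to Etfbkmt) had 125 of 186 higher and 7 lower, median 0.50 (1.42-fold). At the distal end of chromosome 14, chr14:105891947-123627144 (Spry2 to Nalcn, the last tested gene) had 24 of 27 genes lower and 1 higher, median -0.91 (0.532-fold). Interquartile ranges stayed on one side of 0 in all 5: 0.68 to 1.03 and -0.72 to -0.37 on chromosome 3, 0.57 to 0.84 and 0.29 to 0.71 on chromosome 6, and -1.14 to -0.71 on chromosome 14. The distal part of chromosome 6 held Nanog, the distal part of chromosome 3 Acadm, and the part of chromosome 14 Zic2, Zic5, Ipo5 and Uggt2.

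**Figure D2:**
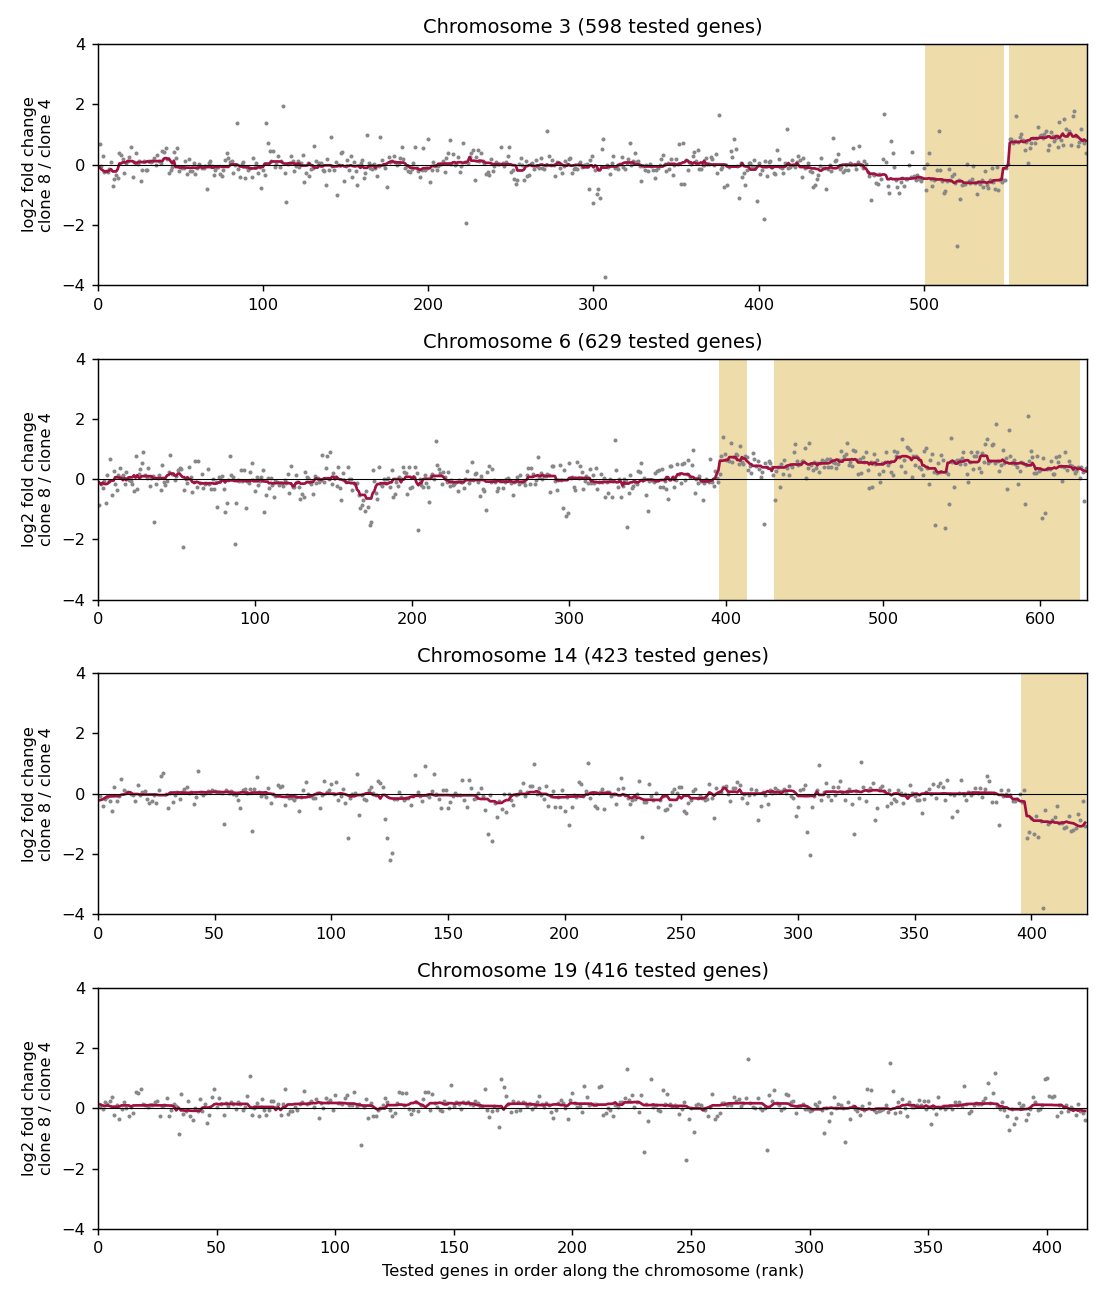
Log2 fold change (clone 8 over clone 4, all 16 libraries, y axis, drawn within -4 and 4) of each tested gene by its rank along chromosomes 3, 6, 14 and 19 (x axis), with the running median of 15 genes as a red line and the 5 stretches shaded. The line leaves 0 over the distal parts of chromosomes 3, 6 and 14, and chromosome 19 shows a small even shift (median 0.10).

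The level of each stretch was measured in every library as the median over its genes of log2 CPM minus the mean of that time. In the distal chromosome 3 stretch the 8 clone 4 libraries lay from -0.53 to -0.35 and the 8 clone 8 libraries from 0.31 to 0.50. In the chromosome 14 stretch they lay from 0.34 to 0.53 and from -0.53 to -0.23. For the remaining 3 stretches the clones did not overlap either, with clone 4 at 0.14 to 0.33 and clone 8 at -0.32 to -0.15 in the lower part of chromosome 3, at -0.41 to -0.30 and 0.25 to 0.43 in the first part of chromosome 6, and at -0.28 to -0.22 and 0.19 to 0.28 in the second. The 0h libraries among these also set the bounds. The genes outside the stretches on chromosomes 1 to 19 and X gave 0.00 to 0.02 in clone 4 and -0.01 to 0.01 in clone 8.

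**Figure D3:**
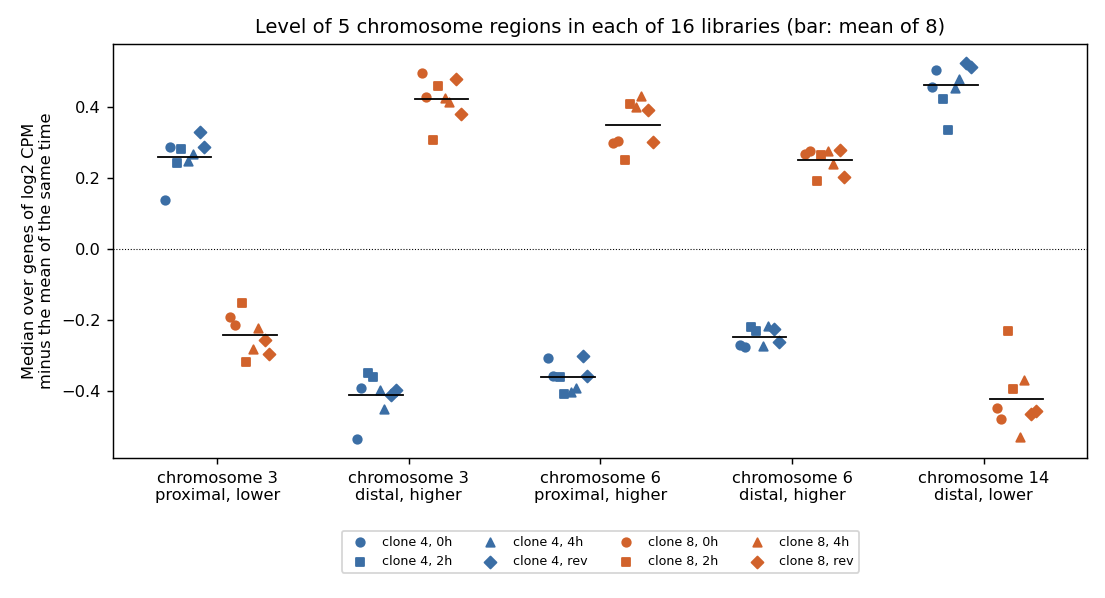
Level of each of the 5 stretches (median over its genes of log2 CPM minus the mean of the same time, y axis) in the 16 libraries, clone 4 in blue and clone 8 in orange, with 1 symbol per time and a black bar at the mean of 8 libraries. Subtracting the mean of a time places the clones' means on opposite sides of 0, so the distance between the clones relative to the spread within each is what the plot shows. The smallest gap between the ranges of the clones' libraries is in the lower part of chromosome 3.

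The edges were not equally sharp. In the fit over all libraries, the 30 tested genes before the first stretch of chromosome 6 (Magi1 to Arl8b) had a median of 0.01 and the 30 before that of chromosome 14 (Rgcc to Ndfip2) -0.02. The 30 before the lower stretch of chromosome 3 (Sass6 to Gm4617), which lay outside the bounds set at 0h, had a median of -0.46 with 18 lower and 2 higher, and the 30 before those -0.06. The 17 genes between the chromosome 6 stretches had a median of 0.39 with 13 higher. Without the 0h libraries, which set the bounds, 249 of the 323 tested genes in the stretches were called (77.1%), against 27.5% of the 12207 genes outside. Over all libraries the stretches made up 7.21% of the calls, and without them 1738 genes were higher and 1647 lower. DNA copy number was not measured, and which of the 2 clones departs from the parent line cannot be told apart.

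Some genes did not follow their neighbours. Lef1 fell far below the median of its chromosome 3 stretch, and Tet2, a 5-methylcytosine dioxygenase in the same stretch, was not called (log2 fold change -0.07, SE 0.06, adjusted p 0.445). Uggt2 lay far below the chromosome 14 median. On chromosome 6, Ccnd2, the cyclin D2 gene, was lower in clone 8 (-1.61, SE 0.18, adjusted p 8.51e-09; 2 genes overlap it antisense) among neighbours that were mostly higher. Cdkn1b, the cell cycle inhibitor p27, was at 8.87 to 20.3 CPM in clone 4 and 23.8 to 44.8 CPM in clone 8 (1.17, SE 0.08, adjusted p 8.85e-14), above the median of the stretch. Emp1 and St8sia1, named above for their increases, lie in the same stretch and were higher still.

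Chromosomes Y and 19 also had medians away from 0. Over all chromosomes 15% of tested genes were higher in clone 8 and 13.3% lower. All 8 tested Y genes were lower, with a median log2 fold change of -0.68. The decreases ranged widely, from -0.21 (SE 0.08) for the RNA helicase Ddx3y to -2.12 (SE 0.30) for Usp9y, and Kdm5d, a histone demethylase, was at -1.56 (SE 0.21). The level over the Y genes was 0.29 to 0.48 in clone 4 and -0.45 to -0.21 in clone 8. On chromosome 19, 93 of 416 genes were higher (22.4%) and 24 lower (5.77%), with a median of 0.10, and the clones did not overlap in the chromosome's level (-0.06 to -0.03 against 0.02 to 0.08). Scaled by library size alone the chromosome 19 median was -0.16, which is 0.10 above the median of all genes under that scaling. In a bulk sample, loss of a chromosome in some cells and lower expression in all cells cannot be told apart.

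Counts of called members in the lists that follow stand against 15% of all tested genes higher in clone 8 and 13.3% lower. Of 15 naive pluripotency genes, all tested, 8 were higher and 3 lower, with a median log2 fold change of 0.26 against -0.01 over all tested genes. Klf4, a Krüppel-like factor of the naive network, ranged from 51.4 to 95.8 CPM in clone 4 and from 112 to 142 CPM in clone 8, without overlap (0.79, SE 0.07, adjusted p 6.6e-11). Nanog, the homeobox factor, ranged from 180 to 329.5 and from 311 to 513 CPM (0.66, SE 0.05, adjusted p 1.65e-12). Nanog overlapped over the 8 libraries but at no single time, and it lies in the shifted part of chromosome 6, where the median was 0.53 over all libraries. Tbx3 (0.44, SE 0.06), Fgf4, the ERK-activating ligand (0.38), Tfcp2l1 (0.34), Esrrb (0.31), Prdm14 (0.29) and Tcl1 (0.26) were also higher. Gbx2 (-1.25, SE 0.16), Zfp42, the marker Rex1 (-0.30), and Nr0b1, which encodes Dax1 (-0.25), were lower. Scaled by library size alone the median of the list was -0.01, which is 0.25 above that of all genes.

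Of 10 core pluripotency genes 3 were higher and 3 lower, against 15% and 13.3% of all genes (median 0.03). Utf1, a chromatin factor of undifferentiated cells, was at 9.11 to 57.3 CPM in clone 4 and 26.6 to 93.0 CPM in clone 8 (1.08, SE 0.08), overlapping across times but at no single time. Tdgf1, the Nodal co-receptor Cripto, was higher by 0.87 (SE 0.06) without overlap. Lin28a (-0.46), Dppa4 (-0.32) and Sox2 (-0.18, SE 0.05, adjusted p 0.0088) were lower.

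Of 14 tested genes of the formative and primed epiblast, 7 were lower and 1 higher, against 13.3% and 15% of all genes, with a median of -0.27. Zic2 ranged from 42.7 to 113 CPM in clone 4 and from 16.4 to 69.2 CPM in clone 8 (-1.14, SE 0.07) and Zic5 from 20.6 to 45.1 and from 5.40 to 21.8 CPM (-1.25, SE 0.09). Both zinc-finger genes and Lef1 lie in the shifted stretches. Of the 11 members outside them, 4 were lower and 1 higher (median -0.11), against the same shares of all genes. These were Sox3 (-0.91, SE 0.20), Grhl2, a factor of epithelial enhancers (-0.83, SE 0.16), and the DNA methyltransferases Dnmt3a (-0.33, SE 0.07) and Dnmt3b (-0.26, SE 0.07), with Cdh2, N-cadherin, higher (0.72, SE 0.19). Fgf5, a marker of the primed state, was too low to test. Under library-size scaling the list median was -0.51, or -0.25 relative to all genes.

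Of 17 primitive endoderm genes 8 could be tested, and 6 of them were higher in clone 8 and 0 lower (median 0.52), against 15% and 13.3% of all genes. They encode mainly basement membrane proteins. Lama1 was at 29.6 to 42.1 CPM in clone 4 and 42.9 to 65.5 CPM in clone 8 (0.54, SE 0.06), Sparc at 91.5 to 128 and 130.2 to 190.4 CPM (0.49, SE 0.05) and Col4a1 at 1.62 to 3.49 and 4.49 to 7.15 CPM (1.11, SE 0.16). Lamb1 (0.51), Col4a2 (1.00, antisense overlaps) and Hnf4a (1.58) completed them. Gata4 had values of 2.22 and 2.496 CPM (0.14, SE 0.20, adjusted p 0.653), and the lineage's transcription factors Gata6 and Sox17 were too low to test. Members summed to 166 to 217 CPM per library in clone 4 and 246 to 312 CPM in clone 8, and what part another cell type has in this was not tested.

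Among 6 tested trophectoderm genes, the keratins Krt8 (2.11, SE 0.31) and Krt18 (1.61, SE 0.32) were higher at low levels and Cdx2 and Tfap2c (-0.43, SE 0.07) lower. In the mesendoderm list 1 of 5 was called, T (brachyury), at 2.17 to 16.8 CPM in clone 4 and 0.213 to 5.89 CPM in clone 8 (-1.75, SE 0.20). The 4 tested neural genes were split, with Sox1 (1.55) and Nes (0.37) higher and Tubb3 (-1.04, SE 0.10) and Pax6 (-1.69) lower. Over all genes 28.4% were called. None of the 8 tested genes of the two-cell-like state, which includes the Zscan4 family of near-identical copies, was called by edgeR (adjusted p from 0.0602 to 0.936; median -0.17).

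**Figure D4:**
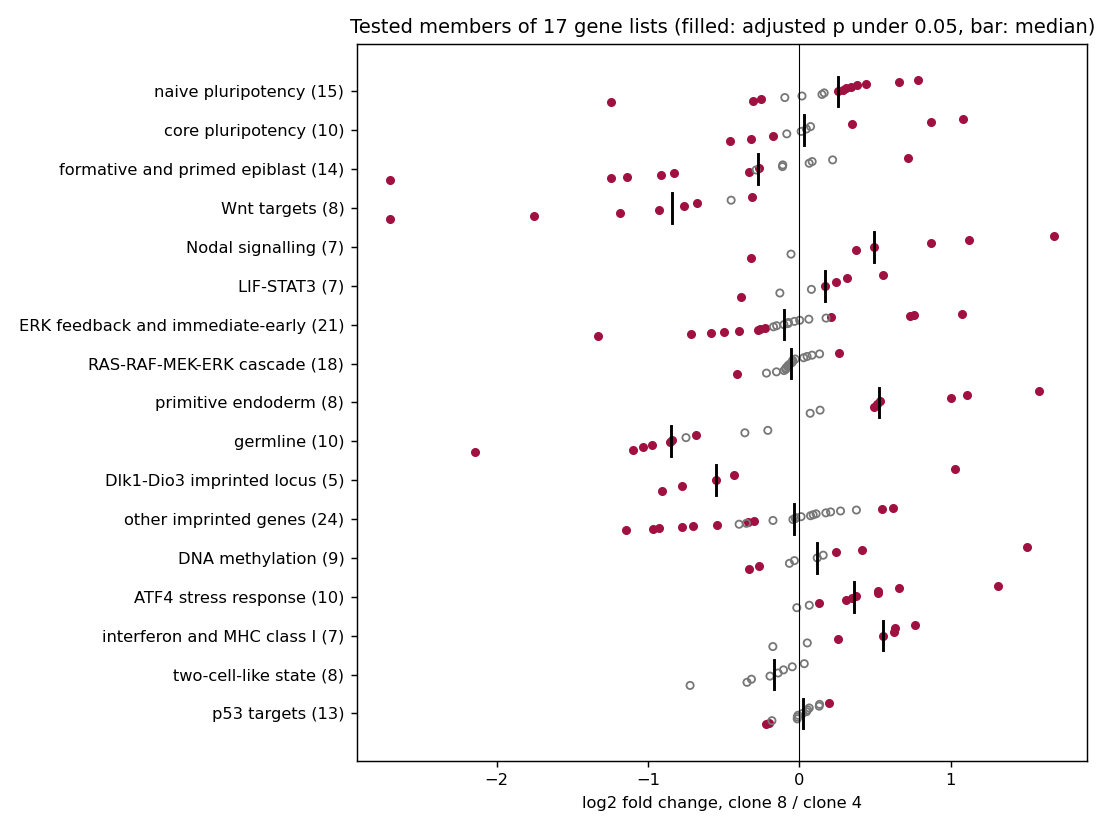
Log2 fold change (clone 8 over clone 4, x axis) of the tested members of 17 gene lists (y axis, with the number tested), filled where the adjusted p was under 0.05 and open otherwise, with a black bar at the list median. The Wnt target, germline and formative lists lie mainly to the left of 0 and the Nodal, primitive endoderm, ATF4 and interferon lists mainly to the right.

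Targets of Wnt signalling were lower in clone 8: 7 of 8 tested, 0 higher, with a median of -0.84, where 13.3% of all genes were lower. Axin2, a feedback inhibitor that promotes β-catenin breakdown, was at 48.3 to 75.3 CPM in clone 4 and 28.5 to 54.9 CPM in clone 8 (-0.67, SE 0.07, adjusted p 1.45e-09). Sp5, a direct target and transcription factor, was at 30.3 to 38.1 and 9.29 to 21.6 CPM (-1.18, SE 0.09), and Cdx1 at 44.6 to 54.6 and 27.0 to 32.5 CPM (-0.76, SE 0.06), both without overlap. Notum, an extracellular Wnt deacylase (-0.93, SE 0.11, antisense overlaps), Tcf7 (-0.31, SE 0.06), T and Lef1 were also lower, and Nkd1 was at 2.192 and 1.59 CPM (-0.45, adjusted p 0.146). The list holds Lef1 and T, which are in other lists too. Sfrp1, the Wnt antagonist with the smallest p, was higher in the same clone. Of the 8 targets, 6 were lower before induction (median -1.08), 6 after 2 h (-0.92), 6 after 4 h (-0.78) and 4 after reversal (-0.63). The shares of all genes called lower at these times were 3.42%, 4.35%, 4.92% and 3.3%. Responses from 0h to 2h, 0h to 4h and 4h to rev were called different at 0 of the 8 targets. Over all genes the shares called different were 0.0856%, 0.303% and 0.00778%. The counts by time therefore do not show that the clones' difference shrank.

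Of 7 Nodal signalling genes 5 were higher and 1 lower, against 15% and 13.3% of all genes, with a median of 0.50. Nodal, the TGFβ-family ligand, was at 20.7 to 26.7 CPM in clone 4 and 30.3 to 39.5 CPM in clone 8 (0.50, SE 0.07, adjusted p 7.15e-07). Lefty2, the co-receptor Tdgf1 and the inhibitory Smad7 (0.37, SE 0.06) were among the other higher genes. Skil, a repressor of SMAD signalling, was lower (-0.32, SE 0.07), and Lefty1, the paralog of Lefty2, was at 7.07 CPM in both (-0.05, SE 0.12, adjusted p 0.785). Of 7 genes of LIF and STAT3 signalling 4 were higher (Socs3 0.56, Lifr 0.31, Stat3 0.25, Pim3 0.17) and 1 lower (Socs2 -0.39), against the same shares, with a median of 0.17 that was -0.10 under library-size scaling, or 0.16 relative to all genes.

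The list for the RAS-RAF-MEK-ERK cascade held 17 genes of the cascade and Esr1, which is not one of them. Of the 17, 1 was higher and 0 lower, and Esr1 was the 1 lower gene of the list (median of all 18 -0.06), where 28.4% of all genes were called in either direction. Of 21 tested feedback and immediate-early genes 8 were lower in clone 8 and 4 higher, median -0.10, read against the same 28.4%. Egr3 (-1.33, SE 0.18), the phosphatase genes Dusp5 (-0.72), Dusp4 (-0.40) and Dusp6 (-0.27), Egr1 (-0.58, SE 0.11), Fos (-0.50) and the feedback inhibitors Spry2 (-0.26) and Spry4 (-0.22) were lower. Fosl1 (1.08), Ier3 (0.75), Myc (0.73, SE 0.11) and Ier2 (0.21) were higher. Before induction 1 of the 21 was higher and 0 lower (median 0.28). After 2h of induction 1 was higher and 4 lower (-0.11), after 4h 1 and 7 (-0.25), and after reversal 1 and 1 (-0.10), where 8.27%, 9.83%, 11.2% and 7.69% of all genes were called at the 4 times in turn. With the 0h libraries fitted on their own the median was 0.08.

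Both clones responded to induction. From 0h to 2h, 16 of the 21 rose in clone 4 and 18 in clone 8, with median log2 changes of 2.34 and 2.02, and none fell. From 0h to 4h 17 and 19 rose (medians 2.22 and 1.95), and from 4h to rev 17 fell in clone 4 and 15 in clone 8 (medians -1.90 and -1.19). Each clone's changes share its 0h or 4h libraries, so these medians are given side by side. Over all genes 6.89% changed by 2h in clone 4 and 16.9% in clone 8, 21% and 20.3% changed by 4h, and 9.86% and 4.89% changed from 4h to rev. The depth of the libraries differed, with 7491020 and 2172651 counts in 2h clone 4 against 12680303 and 12140839 in 2h clone 8. Outside the 8 abundant models, rev clone 8 replicate 2 held 940289 counts. What part depth has in these shares was not tested, and they do not show that one clone responded at more genes.

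The test of the difference itself called few genes. The response from 0h to 2h differed between the clones at 11 of 12854 genes (0.0856%, 0.0389% with a higher change in clone 8 and 0.0467% with a lower one), that from 0h to 4h at 39 (0.303%, 0.124% and 0.179%) and that from 4h to rev at 1 (0.00778%), against 1261, 1442 and 762 genes with an unadjusted p under 0.05. Each rests on 2 libraries in each of 4 groups, and the median SE of a difference was 0.28, 0.29 and 0.30 on the log2 scale. The counts moved when 1 library was left out, from 1 to 36 genes for the change to 2h, 6 to 102 for that to 4h and 0 to 11 for that to rev, so the genes below are those of the full set of libraries. With the share of the 8 abundant models as a covariate 1 gene was called for the change to 4h, Peg10, and with a replicate block 60. The differences themselves were -1.96 for Id3, -1.26 for Egr1, 0.74 for Klf5, 1.39 for Gbx2 and -0.59 for Skil with that covariate, against -2.01, -1.02, 0.83, 1.85 and -0.70 without it, so a lost call there does not show that a difference was absent. That share was 42.0% and 51.7% in the 4h clone 4 libraries and 60.4% and 62.4% in those of clone 8.

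Egr1, the immediate-early zinc-finger factor, was induced less in clone 8. Its 0h libraries were at 29.5 and 18.7 CPM in clone 4 and 25.7 and 31.1 CPM in clone 8, and at 2h they were at 624 and 565 CPM in clone 4 and 367 and 356 CPM in clone 8. At 4h the values were 336 and 368 CPM against 202 and 229 CPM. The clones overlapped before induction and separated after it. The change from 0h to 2h was 4.69 in clone 4 and 3.66 in clone 8, a difference of -1.03 (SE 0.20, adjusted p 0.0197), and that to 4h differed by -1.02 (SE 0.20, adjusted p 0.0101). The 2h call was lost under library-size scaling and without any one of 4 libraries (0h clone 4 replicate 2, 0h clone 8 replicate 2, 2h clone 4 replicate 1 and 2h clone 8 replicate 2), with a difference from -1.33 to -0.68 over 24 alternatives. The 4h call was lost with the 8-model share as a covariate (adjusted p 0.166, edgeR) and without 0h clone 4 replicate 2, 0h clone 8 replicate 2 or 4h clone 8 replicate 1.

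Id3, a helix-loop-helix inhibitor, differed in another way. Before induction it was at 0.812 and 1.64 CPM in clone 4 and at 4.65 and 6.51 CPM in clone 8, while at 2h it was at 30.3 and 28.9 CPM in clone 4 and at 29.4 and 30.6 CPM in clone 8. The levels met after induction, and the smaller change in clone 8 (2.38 against 4.45, difference -2.07, SE 0.36, adjusted p 0.0172) came with a higher level at 0h. The lower of the clone 4 values at 0h is worth 3 counts, the floor, so the size of the change in clone 4 and of the difference is uncertain. Nefm, the medium neurofilament gene, was also higher in clone 8 at 0h, 4.87 and 8.06 CPM against 12.5 and 13.1 CPM, and rose to 118 and 105 CPM in clone 4 and 91.5 and 91.1 CPM in clone 8 at 2h (difference -1.20, SE 0.22, adjusted p 0.0197).

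Ube2d2a, a ubiquitin-conjugating enzyme, was at 26.8 and 21.5 CPM in clone 4 and 17.5 and 15.2 CPM in clone 8 at 0h, and at 21.5 and 17.1 CPM against 29.4 and 31.0 CPM at 2h (difference 1.13, SE 0.21, adjusted p 0.0197). Scarna2, a small nuclear RNA of Cajal bodies, was at 54.7 and 54.3 CPM in clone 4 and 63.2 and 64.5 CPM in clone 8 at 0h, and at 63.0 and 81.4 CPM against 50.9 and 38.6 CPM at 2h (difference -0.87, SE 0.17, adjusted p 0.0197). In both genes the order of the clones turned between 0h and 2h. These 2 calls and those of Id3 and Nefm were lost under library-size scaling. Of the libraries, 0h clone 4 replicate 1 and 0h clone 8 replicate 2 each ended all 4 calls when left out. Leaving out 2h clone 4 replicate 1 ended those of Id3, Nefm and Ube2d2a, 2h clone 8 replicate 2 also that of Nefm, and 2h clone 4 replicate 2 and 2h clone 8 replicate 2 ended those of Ube2d2a and Scarna2.

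Peg10, an imprinted retrotransposon-derived gene (chr6:4747306-4760517), had the smallest p of the 4h differences. Clone 4 rose from 11.1 and 7.91 CPM at 0h to 76.2 and 81.2 CPM at 4h and clone 8 from 13.8 and 9.18 CPM to 23.8 and 25.8 CPM. The clones overlapped at 0h and did not overlap at 4h (changes of 3.11 and 1.15, difference -1.96, SE 0.25, adjusted p 3.17e-05). Over the alternatives tried this call was kept in all 24. Plec, the cytoskeletal linker plectin, rose by 1.75 in clone 4 and 0.92 in clone 8 (difference -0.83, SE 0.15, adjusted p 0.00609; a gene overlaps it on the same strand).

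Of the 15 naive genes, 2 had responses that were called different, Klf5 and Gbx2, each at 2h and at 4h, where 0.0856% and 0.303% of all genes were called. Klf5 was at 144 and 106 CPM in clone 4 and 95.0 and 94.5 CPM in clone 8 at 0h, and at 146 and 170 CPM against 205 and 227 CPM at 4h (changes of 0.36 and 1.19, difference 0.83, SE 0.16, adjusted p 0.0101). The call was lost with the 8-model share as a covariate (adjusted p 0.514, edgeR), under library-size scaling, and without 0h clone 4 replicate 1, 4h clone 4 replicate 1 or 4h clone 8 replicate 2. Gbx2 started far apart, at 13.8 and 14.03 CPM in clone 4 and 2.09 and 2.78 CPM in clone 8, fell in clone 4 (-1.10 by 2h) and was not called in clone 8 by 2h (0.65, adjusted p 0.0847), with a difference of 1.74 (SE 0.34, adjusted p 0.0197). That call was lost under library-size scaling and without 0h clone 8 replicate 2, 2h clone 4 replicate 1 or either 2h clone 8 library.

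Mras, a RAS-family GTPase that activates RAF through SHOC2, was at 22.5 and 18.96 CPM in clone 4 and 19.4 and 16.9 CPM in clone 8 at 0h. By 4h it was at 12.7 and 16.1 CPM in clone 4 and 30.02 and 31.6 CPM in clone 8, so that it fell by 0.50 in one clone and rose by 0.77 in the other (difference 1.28, SE 0.21, adjusted p 0.00545). Elf3, an epithelial ETS factor, fell in both, by 2.36 in clone 4 and 1.45 in clone 8 (difference 0.91, SE 0.16, adjusted p 0.00609). Epha2, an ephrin receptor, was the 1 gene called for the change from 4h to rev: it went from 269 and 265 CPM to 59.5 and 67.4 CPM in clone 4 and from 198 and 192 CPM to 79.7 and 76.5 CPM in clone 8 (difference 0.77, SE 0.14, adjusted p 0.0463), and the call was lost in 14 of 24 alternatives. The calls of Mras, Plec and Elf3 were lost under library-size scaling and with the 8-model share as a covariate, those of Plec and Elf3 also without 4h clone 8 replicate 2, and that of Plec without 0h clone 8 replicate 2. The 4h call of Id3 was lost with that covariate and without 0h clone 4 replicate 1 or 0h clone 8 replicate 2.

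**Figure D5:**
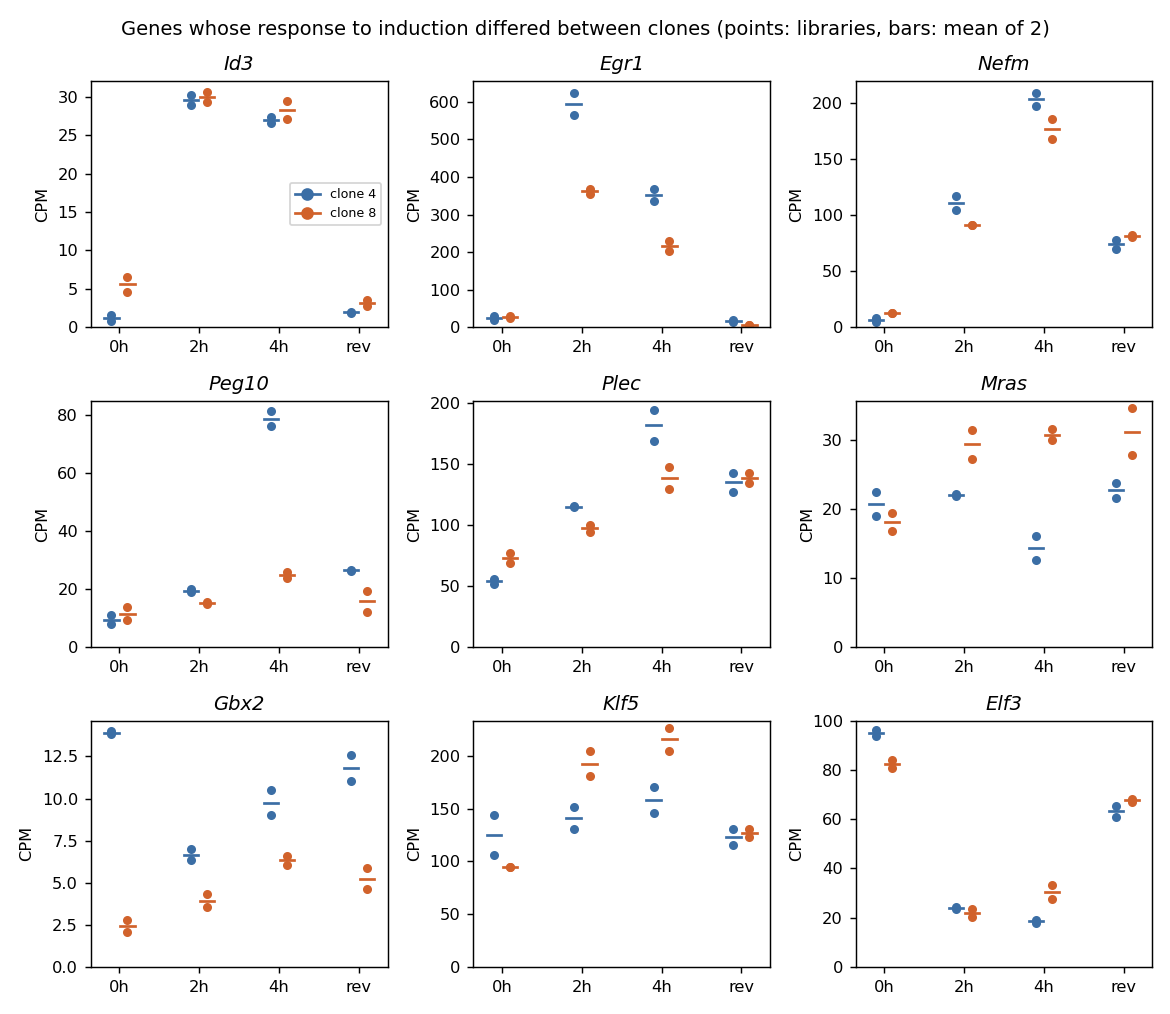
Normalised counts (CPM, y axis from 0) of 9 genes by time (x axis), with 1 point per library, clone 4 in blue and clone 8 in orange, and a bar at the mean of 2 libraries. Egr1 and Peg10 rise higher in clone 4, Id3 and Nefm start higher in clone 8, and Mras and Klf5 end higher in clone 8 at 4h.

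Germline genes, which DNA methylation and Polycomb-type repression keep low in somatic cells, were lower in clone 8: of 15, 10 could be tested and 7 were lower and 0 higher, with a median of -0.85, where 13.3% of all genes were lower. Their promoters are shown because these genes lie on different chromosomes and because a CACGTG E-box near the start is a known feature of germline genes repressed by the MGA-MAX complex. The windows hold the 250 bases before the RefSeq start (GRCm38.p6, 5′ to 3′ on the gene's strand), and capitals mark CACGTG, which reads the same on both strands.
Brdt (chr5:107330944-107331193, + strand): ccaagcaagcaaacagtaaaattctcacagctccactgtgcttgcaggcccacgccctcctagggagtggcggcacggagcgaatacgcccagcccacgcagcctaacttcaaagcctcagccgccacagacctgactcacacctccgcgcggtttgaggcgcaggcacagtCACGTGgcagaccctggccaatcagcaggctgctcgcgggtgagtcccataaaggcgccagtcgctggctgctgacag
Sycp1 (chr3:102936101-102936350, - strand): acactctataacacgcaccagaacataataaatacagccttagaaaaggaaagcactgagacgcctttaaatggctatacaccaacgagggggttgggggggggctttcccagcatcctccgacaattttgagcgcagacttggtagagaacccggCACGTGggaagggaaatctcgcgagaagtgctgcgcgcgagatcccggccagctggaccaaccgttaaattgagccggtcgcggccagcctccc
Taf7l (chrX:134476491-134476740, - strand): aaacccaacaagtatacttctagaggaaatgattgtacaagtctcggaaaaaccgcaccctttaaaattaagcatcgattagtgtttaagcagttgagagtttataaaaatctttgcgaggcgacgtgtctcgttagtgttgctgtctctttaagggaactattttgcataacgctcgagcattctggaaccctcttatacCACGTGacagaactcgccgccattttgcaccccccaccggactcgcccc
Dazl (chr17:50293621-50293870, - strand): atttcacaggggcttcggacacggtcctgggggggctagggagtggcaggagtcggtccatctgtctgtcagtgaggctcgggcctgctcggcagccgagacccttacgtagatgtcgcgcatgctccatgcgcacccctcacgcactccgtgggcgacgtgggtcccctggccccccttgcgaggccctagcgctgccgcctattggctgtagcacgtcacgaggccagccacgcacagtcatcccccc

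CACGTG was present in the windows of 4 of the 7 lower genes (Brdt, Sycp1, Taf7l and Mov10l1), of all 3 tested genes that were not called (Ddx4, Sycp3 and Hormad1) and of 3 of the 5 that could not be tested. It was present in 6.02% of all 32851 promoter windows of that length. Lower and uncalled genes were therefore not divided by these letters. Dazl, Stra8 and Tex19.1 held none. CpG dinucleotides numbered 20 in the Dazl window, 19 in Mov10l1, 17 in Sycp1, 16 in Brdt, 15 in Tex19.1, 14 in Taf7l and 5 in Stra8, against a median of 6 over all windows. The uncalled Ddx4, Hormad1 and Sycp3 held 31, 19 and 12, so the lower and uncalled genes overlapped in this count too. Methylation was not measured.

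Dazl ranged from 92.1 to 141 CPM in clone 4 (median 117) and from 49.2 to 66.8 CPM in clone 8 (median 55.3), without overlap (-1.03, SE 0.06, adjusted p 5.13e-15). Tex19.1, which restrains retrotransposons in germ cells, was at 37.4 to 82.4 and 19.9 to 42.9 CPM (-0.84, SE 0.08), and Brdt, a testis bromodomain protein, at 5.23 to 11.7 and 2.25 to 7.64 CPM (-0.97, SE 0.14). Tex19.1 and Brdt overlapped across times but at no single time. Sycp1, of the synaptonemal complex (-0.68, SE 0.12), Mov10l1, a piRNA helicase (-0.85, SE 0.25), and Taf7l, a germ cell TFIID subunit (-1.10, SE 0.40, adjusted p 0.0349), were at lower levels, and the last 2 were separated between the clones at 2 of the 4 times. Before induction 4 members were lower, after 2 h 3, after 4 h 5 and after reversal 5, beside 3.42%, 4.35%, 4.92% and 3.3% of all genes.

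In the Dlk1-Dio3 cluster of chromosome 12, the maternally expressed non-coding genes Meg3 (22.8 to 36.6 CPM in clone 4, 13.2 to 21.99 CPM in clone 8, -0.77, SE 0.09), Rian (-0.55, SE 0.08) and Mirg (-0.43, SE 0.12) were lower, as was Rtl1 (-0.91, SE 0.16), which has antisense transcripts over its exons that cannot be told apart here. Dio3, at the end of the cluster, was higher (1.03, SE 0.10), from 5.02 to 11.4 CPM in clone 4 and 9.69 to 23.8 CPM in clone 8. Of 24 other imprinted genes, 8 were lower and 2 higher (13.3% and 15% of all genes), median -0.03, which is near the median of all genes. Peg3 (52.2 to 96.4 and 23.2 to 43.8 CPM, -0.97, SE 0.07) and its neighbour Usp29 (-1.14, SE 0.26), Kcnq1ot1 (-0.93, SE 0.07, with 5 genes overlapping it antisense), Peg10 (-0.78), Peg13 (-0.70), Snrpn (-0.54), Mest (-0.34) and Igf2r (-0.30) were lower. Gnas (0.62) and Zdbf2 (0.55) were higher.

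Dnmt3l, the catalytically inactive partner of the de novo methyltransferases, was higher in clone 8, from 1.35 to 10.6 CPM in clone 4 and 6.74 to 20.8 CPM in clone 8, without overlap at any single time (1.501, SE 0.13, adjusted p 3.62e-11). Uhrf1, which recruits the maintenance enzyme, was at 217 to 268 and 299 to 377 CPM without overlap (0.41, SE 0.05), Tet1 was higher by 0.24 (SE 0.06), and Dnmt1 was not called (0.12, SE 0.05, adjusted p 0.0723). Thus 3 of 9 were higher and 2 lower, the latter being Dnmt3a and Dnmt3b, against 15% and 13.3% of all genes. The list median of 0.12 was -0.14 under library-size scaling, or 0.12 relative to all genes.

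Of 10 genes of the ATF4 stress response 8 were higher and 0 lower (median 0.36), against 15% and 13.3% of all genes, led by Nupr1 (1.31, SE 0.16) and including the serine synthesis enzymes Psat1 (0.52, SE 0.05) and Phgdh (0.35, SE 0.08). Before induction 6 were higher, after 2 h 3, after 4 h 2 and after reversal 1, while 4.85%, 5.48%, 6.28% and 4.39% of all genes were higher at these times. Responses from 0h to 2h, 0h to 4h and 4h to rev were called different at 0 of the 10 genes. Over all genes these shares were 0.0856%, 0.303% and 0.00778%. The counts by time therefore do not show that the clones' difference shrank. Among 7 interferon and MHC class I genes 5 were higher and 0 lower (median 0.56), against 15% and 13.3% of all genes, with H2-K1, a class I heavy chain, at 4.38 to 7.76 CPM in clone 4 and 9.49 to 14.2 CPM in clone 8 (0.76, SE 0.11) and B2m, its light chain, higher by 0.62 (SE 0.15). Ldha, lactate dehydrogenase A, was at 105 to 144 and 149.8 to 197 CPM without overlap (0.64, SE 0.05). It was 1 of 4 higher genes of 11 in glycolysis and hypoxia, of which Slc2a1, the glucose transporter GLUT1 (-0.46, SE 0.06), and Bnip3 (-0.70) were lower, where 28.4% of all genes were called.

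The next 4 lists had called shares to be read against 28.4% of all genes. The cholesterol synthesis list had 3 of 12 higher and 0 lower (median 0.05), with Dhcr7 at 0.48 (SE 0.07), and the antioxidant list 2 of 7 higher and 3 lower. Targets of p53 had 1 of 13 higher and 2 lower, with Cdkn1a, the inhibitor p21, at 67.8 and 67.7 CPM (-0.01, SE 0.07, adjusted p 0.903). Among 11 cell cycle brakes and cyclins, Cdkn1b was higher and Ccnd2 and Ccnd3 (-0.34, SE 0.05) lower. None of the 7 tested mitochondrially encoded genes was called by edgeR, with adjusted p from 0.376 to 0.971, and their summed level was 7622 to 18303 CPM in clone 4 and 7990.1 to 15193 CPM in clone 8.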

How the data were processed

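RNA was sequenced in 16 libraries after ribosomal RNA depletion, 2 for each of 4 times in each clone. The deposited values are raw read counts per gene. Per the submitters' processing notes, bcl2fastq 2.19.1, STAR 2.5.3a and the mm10 build were used, whereas the counting tool, its annotation and its strand setting are not given in the sources used here. Gene names came from GENCODE M21, which matched 52489 of 52636 identifiers, and 147 did not match.

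Genes with enough counts (filterByExpr over the 8 clone-and-time groups, 12854 genes) were scaled by TMM and tested with edgeR 4.0.16 (quasi-likelihood, R 4.3.3), with time as a covariate and Benjamini-Hochberg adjusted p under 0.05. A difference in response is the interaction of clone and time in the model with 8 groups. The procedures were tested on simulated data. Alternatives were DESeq2 1.42.0, other scalings and filters, a replicate block, single times and leaving out each library. Single values were tested by exact permutation within time.

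Named genes were the 12 largest called changes in each direction among genes with a mean of at least 5 CPM in one clone and the same sign at all 4 times, and the 5 smallest p-values in each direction. Libraries were assigned to the clones by column name, but the members, as the comparison to describe, and the lists were chosen with earlier results of these data known. For each difference in response the rule named the 5 smallest p-values, and for genes near absent in one clone the 5 highest in the other. The bounding of stretches at 0h, with their description in the fit without 0h, was chosen after seeing the data, as was the count of the library nearest to the other clone. Some members counted in lists and clusters are not reported here by name. Figures were drawn with matplotlib 3.10.9.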

Additional observations from a re-analysis of the deposited data

Results flagged for a closer look

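Among 82 groups of 8 libraries, 7 held 1 library set apart from the rest by a gap above Dixon's critical share of the range, and chance gives about 1 in 20. St8sia1 was at 3.148 CPM in rev clone 8 replicate 2 against 7.114 to 13.31 CPM in the other clone 8 libraries. The same library had 80.39% of its counts in the 8 most abundant models. In 2h clone 8 replicate 1, Nlrp4c was at 3.13 CPM, Stra8 at 6.345 CPM and Myof at 70.38 CPM, each on the side of the clone 4 values. It was the clone 8 library nearest to clone 4 for 18 of 31 named genes and in 5 of 5 chromosome stretches, and what part this has was not tested. 2300002M23Rik was at 0.4337 CPM in rev clone 4 replicate 2, and the lower stretch of chromosome 3 had a level of 0.1385 in 0h clone 4 replicate 1.

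The test of the difference between the clones' responses picked out 7 genes of the report's lists and naming rule at 2h: Id3 (-2.072), Nefm (-1.205), Ube2d2a (1.128), Egr1 (-1.034), Scarna2 (-0.8731), Gbx2 (1.742) and Klf5 (0.8186), as clone 8 minus clone 4 on the log2 scale. The 2h call of Klf5 was lost under library-size scaling and without any one of 5 libraries (0h clone 4 replicate 1, 0h clone 8 replicate 2, both 2h clone 4 libraries and 2h clone 8 replicate 2). At 4h they were Peg10 (-1.961), Mras (1.278), Plec (-0.8295), Id3 (-2.006), Elf3 (0.9092), Gbx2 (1.847), Klf5 (0.8309), Egr1 (-1.022), Skil (-0.6979), a SMAD repressor, and Pfkp (-0.6182), a phosphofructokinase. With the 8-model share as a covariate, of these only Peg10 was still called at 4h. Under library-size scaling the 4h calls of Gbx2, Klf5, Skil and Pfkp were lost, and without 4h clone 8 replicate 2 that of Gbx2. The call of Skil was also lost without any one of 6 libraries (the 4 of 0h, 4h clone 4 replicate 1 and 4h clone 8 replicate 2), and that of Pfkp without any one of these except 0h clone 8 replicate 1. For the change from 4h to rev it was Epha2 (0.7683).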

How the results depend on the processing

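Leaving out 1 library at a time gave 1687 to 2033 higher and 1471 to 1823 lower genes, 1 to 36 differences in response at 2h, 6 to 102 at 4h and 0 to 11 in rev, and 0.6755 to 0.7809 for the first chromosome 6 stretch. Of the genes named for the clone effect, over the alternatives run, only Gm2694 lost its call, with the 0h libraries alone (adjusted p 0.0568, edgeR). Scaled by library size alone, 299 genes were higher; list medians were -0.2135 for cholesterol synthesis, -0.1418 for DNA methylation, -0.1046 for LIF-STAT3 and -0.007089 for naive genes; the stretches were at -0.7928 and 0.6067 (chromosome 3), 0.4871 and 0.2755 (chromosome 6) and -1.201 (chromosome 14), chromosome 6 at -0.1177 and chromosome 19 at -0.1568; 3 responses differed at 2h and 0 in rev; and 229, 146 and 3783 genes differed at 0h, 2h and rev. With the 8-model share as covariate 1 response differed at 4h and 0 in rev. Without a low-count filter 68, 127 and 16 responses differed. With a mean of at least 1 CPM the fibroblast median was 0.008928. At 2-fold, 194 and 246 genes were called. Without the time covariate 1117 were higher and 845 lower.

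The 0h libraries alone gave 460 higher and 327 lower, list medians of -0.041 (cholesterol), -0.01222 (DNA methylation), 0.08109 (ERK feedback), 0.004086 (fibroblast), 0.5283 (neural) and 0.00627 (cascade), and stretches at -0.4773, 0.92, 0.6086, 0.5657 and -1.062. Without 0h the chromosome 6 stretches were at 0.7904 and 0.5012. The 2h libraries alone gave 749 and 600 genes, and 0.6732 and 0.4897 on chromosome 6 and -0.7643 on chromosome 14. Without 2h the distal chromosome 3 was at 0.92 and chromosome 14 at -1.042. The 4h libraries alone gave 825 and 722 genes and 0.5005 for the second chromosome 6 stretch. The rev libraries alone gave 702 and 576 genes, fibroblast and neural medians of 0.1758 and 0.004619, and -0.6377 and -1.118 for the lower chromosome 3 and chromosome 14 stretches. DESeq2 gave 22 responses at 4h and 532, 547, 723 and 482 genes by time. The causes were not tested.

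Replicate numbers were not shown to pair samples (mean correlation of deviations -0.00187). With the replicate block 1766 genes were higher and 1509 lower, 60 responses differed at 4h and 0 in rev. With 2 libraries a group, the median SE of a difference in response was 0.28 to 0.30, so small differences were not detectable, and values near 3 counts are not separable from 0.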

Other observations

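The following clusters were chosen after their values were seen. In the X-linked Rhox homeobox cluster 4 of 5 tested members were lower in clone 8 and 0 higher, where 13.3% of all tested genes were lower. These include Rhox5, the gene that drew attention to the cluster, and leave 3 of 4 without it. Rhox13 was at 1.73 to 2.20 CPM in clone 4 and 0 to 1.32 CPM in clone 8 (-2.10, SE 0.32, adjusted p 2.48e-06, edgeR), and Rhox6 (-1.47) and Rhox2a (-1.06), which has near-identical copies, were also lower. In clone 8 these 3 were at means of 0.476, 0.353 and 0.426 CPM with 0 counts in some libraries, close to the floor, so that they could be tested only through clone 4. Rhox1 was at 2.56 and 2.10 CPM (-0.24, adjusted p 0.47).

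Counts by Hox cluster stand against 28.4% of all tested genes called, and differences between clusters were not tested. In the Hoxa cluster 4 of 6 tested genes were lower and 0 higher (median -0.89). The neighbouring genes Evx1 (-1.42), Evx1os (-1.51) and the non-coding Halr1 (-0.52) were also lower, but the clones overlapped in each of them across times. Evx1os was near the floor, at 0 to 4.81 CPM in clone 4 and 0 to 2.28 CPM in clone 8. Evx1 was at 0.149 to 15.9 and 0 to 6.46 CPM, and Halr1 at 4.68 to 8.39 and 2.57 to 8.17 CPM. In the Hoxd cluster 2 of 3 were higher, Hoxd13 (0.54) and Hoxd9 (0.50). At 0h Hoxd13 was near the floor in clone 4, at 0.271 and 1.05 CPM against 3.69 and 3.84 CPM in clone 8. At 4h it was at 6.71 and 6.66 CPM against 7.03 and 7.38 CPM. Its change from 0h to 4h was called different between the clones (difference -2.17, SE 0.51, adjusted p 0.0493, edgeR). In the Hoxb cluster 1 of 3 was lower, Hoxb9 (-0.90), and in the Hoxc cluster 1 of 4 was higher, Hoxc13 (0.33).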
